A study of Triticum aestivum with 18 samples.

Results

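In group means, a pair of probe rows of a wheat microarray stood higher in control root apices of 3 wheat lines than after aluminium (Al) treatment. The Al means lay toward the dim end of the array. Single samples departed from this: row 6437 read up to 7.17 (log2 intensity) with Al, in the middle of the array, and row 44724 down to 6.92 in control. Both rows were chosen from the deposited values. A row had to have a mean of at least 7.3 on the log2 intensity scale over the 3 control samples of each line. Its mean over the 3 Al samples of each line had to be under 6.3. Of 45220 rows, 3 met these 6 limits, and 1 of them was left out because it is annotated as the gibberellin gene GA20ox1b, so that 2 remained, row 6437 and row 44724. Neither has a gene symbol in the platform annotation, which names 996 rows and leaves 44224 unnamed. They are therefore given by their row numbers, with no function, and their probe sequences were not used here.

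The lines were the bread wheat (Triticum aestivum) cultivar Chinese Spring (CS) and the wheat-rye addition lines 3R and 6R, which hold the complete wheat genome and a pair of chromosomes 3R or 6R of rye (Secale cereale). Seedlings of all groups grew in nutrient solution of pH 4.0 and were transferred at an age of 4 days for 24 h to the same solution with 200 µM AlCl3 or without it. Each of the 6 groups (3 lines, control or Al) had 3 samples, called biological replicates in the labels, and a sample was made of 9 root tips 1 cm long from plants 5 days old. The 9 arrays had 2 colours, and each paired an Al sample with the control sample of the same replicate number, 1 in Cy3 and 1 in Hyper 5. In each line the Al sample was in Cy3 on 2 arrays and in Hyper 5 on 1.

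Al becomes soluble in acid soils and solutions and stops the growth of the root apex, where division and elongation take place. Transcripts that stand high in growing root tips and low under Al can belong to growth itself or to other functions of the tip, and a bulk sample of root tips cannot tell fewer cells of a type from less RNA per cell. A probe reads the RNA that binds to it, and near the dim end of an array its value comes mostly from background light, so a low value gives an upper bound of the RNA and not a level of 0. The table carries no detection call. Its lowest log2 value is 5.62, and 34.2% of the rows (15480) had a mean under 6.3 in all 6 groups.

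Over the whole series, replicates of a group correlated at 0.941 to 0.98 across rows, and no columns were identical. Values had been normalized within each line: the sorted values of samples of a line differed by at most 0.0064, and those of a CS and a 3R sample by up to 0.355. The list of dividing cell markers held 19 rows, all of beta-tubulins and histone H2A. Its other patterns, among them cyclins (CYC), PCNA and histones H3 and H4, had no row, so the list marks dividing cells in part only. Its mean log2 intensity per sample was 12.0 to 12.4 in control and 11.3 to 12.0 in Al samples. Of 26 rows of seed storage and endosperm genes, 22 lay under 6.3 in control samples and 24 in Al samples. Their per-sample means were 6.17 to 6.35 and 6.00 to 6.27. The 23 rows of the leaf or plastid list, mostly the Rubisco large subunit rbcL, read 8.94 to 10.0 in control and 8.81 to 10.4 in Al samples, and their part in the results was not tested. The list for root epidermis and border cells has 4 rows, all of the Prx pattern of peroxidases, with per-sample means of 7.91 to 9.49 in control and 6.13 to 8.04 in Al samples, and its part in the results was not tested. With 4 rows of 1 pattern the labelled tissue could hardly be checked against markers of its own.

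Row 6437 was bright in all control samples and was among the dimmest rows of the array in most Al samples. In CS its log2 intensity was 10.1, 8.85 and 10.5 in control replicates 1 to 3 and 5.74, 6.39 and 5.74 in the Al samples. In 3R it was 12.4, 11.7 and 10.6 in control and 5.80, 7.17 and 5.80 with Al. In 6R it was 11.6, 11.6 and 11.8 in control and 6.63, 5.63 and 5.64 with Al. The groups of each line lay far apart, the gap between the lowest control and the highest Al sample being 2.46 in CS, 3.41 in 3R and 5.00 in 6R. Group means were 9.82 ± 0.87 (SD, n = 3) and 5.96 ± 0.37 in CS, 11.5 ± 0.91 and 6.26 ± 0.79 in 3R, and 11.7 ± 0.13 and 5.96 ± 0.57 in 6R.

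**Figure D1:**
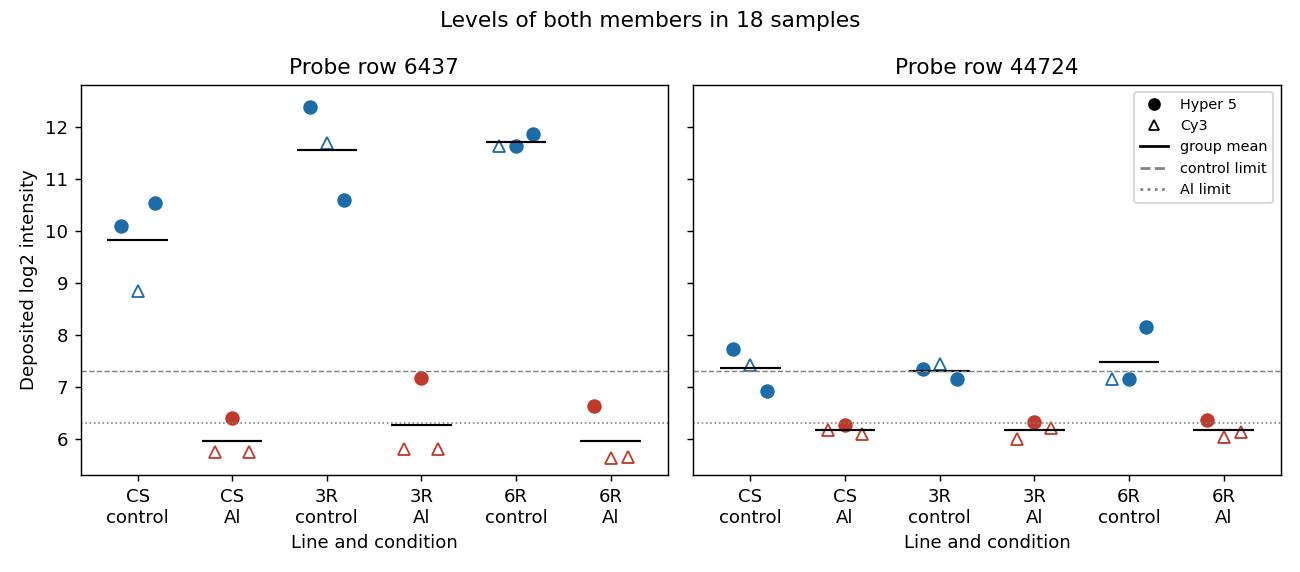
Deposited log2 intensity of row 6437 (left) and row 44724 (right) in the 18 samples, by line and condition, with filled circles for Hyper 5, open triangles for Cy3, a bar for each group mean, and the control limit of 7.3 (dashed) and Al limit of 6.3 (dotted). The Al samples of row 6437 labelled with Cy3 lie between 5.63 and 5.80 and those labelled with Hyper 5 between 6.39 and 7.17, while row 44724 keeps close to both limits.

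Each of the 9 arrays read row 6437 lower in its Al sample. The log2 ratio of Al over control on an array was -4.35, -2.46 and -4.79 for CS replicates 1 to 3, -6.57, -4.52 and -4.78 for 3R and -5.01, -6.00 and -6.21 for 6R. With the dye effect removed, as 1 term shared by all lines, the change was -3.62 ± 0.32 (SE, n = 3 arrays, 12.3-fold) in CS, -5.05 ± 0.32 (33.1-fold) in 3R and -5.50 ± 0.32 (45.2-fold) in 6R. The SE rests on the spread over all 9 arrays of the fit. A shared term cannot take out dye differences that vary between lines or conditions, as those of this row did. In the 6 Al samples in Cy3 the row lay at the dim end, where values come mostly from background light, so the size of the falls is uncertain. By its mean ratio over the 9 arrays, -4.97, the row had the third largest fall of all rows. It ranked 65 from the largest fall in CS, 3 in 3R and 5 in 6R by mean ratio, while the median ratio of all rows was within 0.02 of 0 on every array.

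Row 44724 stood near both limits, in the middle of the range of intensities in control samples and in the lower part of it with Al. In CS its log2 intensity was 7.72, 7.42 and 6.92 in control replicates 1 to 3 and 6.16, 6.27 and 6.09 with Al. In 3R it was 7.34, 7.43 and 7.16 in control and 5.99, 6.32 and 6.21 with Al. In 6R it was 7.14, 7.15 and 8.15 in control and 6.36, 6.03 and 6.13 with Al. The groups of a line did not overlap, with gaps of 0.65 in CS, 0.84 in 3R and 0.78 in 6R, but the control means of 7.36 ± 0.40 (SD, n = 3) in CS, 7.31 ± 0.14 in 3R and 7.48 ± 0.58 in 6R stood just inside the limit. All 3 Al means were 6.17, with an SD of 0.09 in CS and 0.17 in 3R and 6R.

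The fall of row 44724 was found on 9 of 9 arrays. Its log2 ratio ran from -1.56 to -0.83 in CS, from -1.35 to -0.95 in 3R and from -2.02 to -0.78 in 6R. With the dye effect removed the change was -1.13 ± 0.22 (SE, n = 3 arrays, 2.20-fold) in CS, -1.09 ± 0.22 (2.13-fold) in 3R and -1.26 ± 0.22 (2.39-fold) in 6R. By its mean ratio of -1.21 the row ranked 786 among all rows. That all 3 Al samples of a line lay below all 3 control samples held for both rows in each line and for 7.32% of all rows in CS, 6.73% in 3R and 8.19% in 6R. Since these contrasts chose both rows, no test is given for them. Over all rows, limma called 22.9% for a change with Al in either direction in CS, 14.9% in 3R and 27% in 6R.

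**Figure D2:**
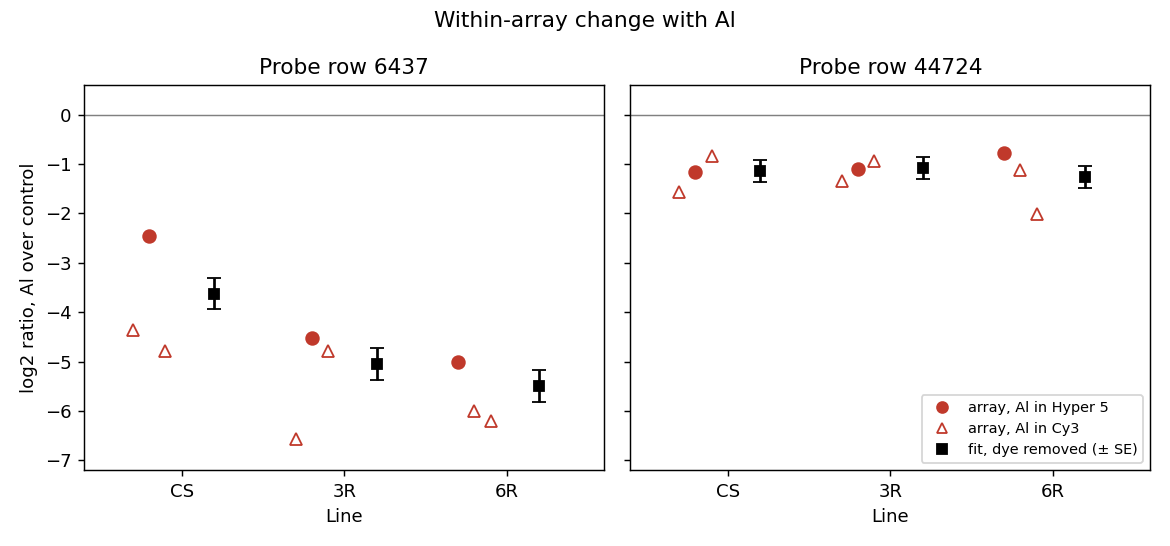
Log2 ratio of Al over control on each of the 9 arrays for row 6437 (left) and row 44724 (right), with filled circles for arrays that had the Al sample in Hyper 5, open triangles for Cy3, and squares with SE for the fitted change of a line without the dye effect. All ratios are below 0, and in row 6437 the array with Al in Hyper 5 gives the smallest fall of each line.

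The label of probes shut off by Al holds for row 6437 in 1 dye only. Its 6 Al samples in Cy3 read 5.63 to 5.80, where between 0 and 281 of the 45220 rows of the sample were lower. Its 3 Al samples in Hyper 5 read 6.39 to 7.17, above the limit of 6.3, with 17546 to 23016 rows lower. An Al sample in Hyper 5 therefore stood above the mean of those in Cy3 by 0.65 in CS, 1.37 in 3R and 0.99 in 6R. Among the 15480 rows dim in all groups this difference had a median of 0.00 in each line, with 5th and 95th percentiles of -0.18 and 0.19 in CS, -0.17 and 0.17 in 3R and -0.18 and 0.17 in 6R, so that row 6437 lay outside that range in each line. In control samples of row 6437 Hyper 5 minus Cy3 was 1.47 in CS, -0.21 in 3R and 0.11 in 6R. For row 44724 the difference in Al samples was 0.14, 0.22 and 0.28 in CS, 3R and 6R, and its Al samples in Hyper 5, at 6.27, 6.32 and 6.36, were on both sides of the limit.

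The dye effect, Hyper 5 minus Cy3, was not itself a limit of the rule. It enters the group means that the rule used, because 2 of 3 control samples of each line were in Hyper 5 and 2 of 3 Al samples in Cy3. A row brighter in Hyper 5 thus met the limits more easily. The dye p-values and the count of rows come after that choice and describe the rows without testing them independently. Row 6437 was brighter in Hyper 5 by 0.73 ± 0.19 (SE, 9 arrays, limma adjusted p = 0.017 over all rows). For row 44724 the estimate was 0.15 ± 0.13 (limma adjusted p = 0.46). The count of 1 of 2 rows with a dye effect stands beside 39.6% of all rows called in either direction and 21.4% called brighter in Hyper 5. Without CS replicate 2 the count was 0.

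The falls were present within each dye. In Cy3 alone, with 2 Al samples against 1 control sample per line, the log2 change of row 6437 was -3.11 in CS, -5.89 in 3R and -6.00 in 6R. In Hyper 5 alone, with 1 Al sample against 2 control samples, it was -3.92, -4.31 and -5.11. For row 44724 it was -1.30, -1.33 and -1.06 in Cy3 and -1.05, -0.93 and -1.29 in Hyper 5 in CS, 3R and 6R. These values have no test, and a comparison within a dye is made between arrays. They come from the samples whose means the rule bounded, so a fall within a dye is not independent of the choice of rows.

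Which rows met the limits changed when a dye effect was taken out. The counts here and in the next paragraph leave out the GA20ox1b row, as the rule does. The dye effect of each row was taken out of its group means as 1 term shared by all lines and conditions. In 3R, Hyper 5 minus Cy3 of row 6437 was 1.37 in Al and -0.21 in control samples, which a shared term cannot take out. Neither row 6437 nor row 44724 then met all limits. Row 6437 had a 3R Al mean of 6.38 and row 44724 a 3R control mean of 7.28. Row 15282 then did, and so did the GA20ox1b row that the rule leaves out. When all 18 samples were quantile normalized together, no row but the left-out GA20ox1b row did, the 3R Al mean of row 6437 being 6.31 and the CS control mean of row 44724 being 7.24. No row had every one of its 9 control samples at 7.3 or more and every one of its 9 Al samples under 6.3.

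Leaving out 1 replicate of 1 line left between 0 and 4 rows that met the rule. Without 3R replicate 1 there was none, without 3R replicate 2 there were 4, and without CS replicate 1, 3R replicate 3 or 6R replicate 3 there was 1. Row 44724 dropped out without CS replicate 1, 3R replicate 1, 3R replicate 2 or 6R replicate 3, and row 6437 without 3R replicate 1 or 3R replicate 3.

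No more than 3 rows failed a single limit by 0.1 or less. Row 15282 missed by 0.042, with a 6R control mean of 7.26. Row 29910 missed by 0.044 and row 19856 by 0.075, both in the 3R Al mean, at 6.34 and 6.37. The 3R line limited the choice most: with the GA20ox1 rows counted in, 46 rows met both limits in CS, 58 in 6R and 6 in 3R, and 24 met them in CS and 6R together. The lines had been normalized separately, and the median of a sample was 7.33 in CS, 7.09 in 3R and 7.22 in 6R. The same limits thus fell at different points of the range of each line. Of 23 rows that failed 1 of the 6 limits, 20 failed the Al limit in 3R.

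The row left out, row 41254, is annotated as GA20ox1b, which encodes a gibberellin 20-oxidase, an enzyme late in the synthesis of the growth hormone gibberellin. It read 7.86 ± 0.15 (SD, n = 3) in control and 6.15 ± 0.06 in Al samples of CS, 7.33 ± 0.74 and 6.14 ± 0.16 in 3R, and 8.33 ± 0.32 and 5.96 ± 0.26 in 6R. Its change with the dye effect removed was -1.66 ± 0.26 (SE, n = 3 arrays) in CS, -1.14 ± 0.26 in 3R and -2.32 ± 0.26 in 6R. The gibberellin list has 5 rows, among them 4 of GA20ox1a, GA20ox1b and GA20ox1d, with per-sample means of 7.50 to 8.58 in control and 5.95 to 6.75 in Al samples. The list was made by gene symbol, so the 2 unnamed rows could not be on it.

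The control level of each row was compared between the lines. The rule set the same lower limit of 7.3 for these control means in each line, so the comparison is not independent of the choice of rows. Those of row 44724, at 7.36 in CS, 7.31 in 3R and 7.48 in 6R, stood just inside that limit. Row 6437 was higher by 1.72 ± 0.47 (SE, 3 against 3 samples, 95% interval 0.70 to 2.75) in 3R than in CS and by 1.88 ± 0.47 (0.86 to 2.90) in 6R than in CS. Neither difference passed after adjustment over all rows (limma adjusted p = 0.078 and 0.24, unadjusted p = 0.0030 and 0.0016). Between 3R and 6R its difference was -0.16 ± 0.47 (-1.18 to 0.87). For row 44724 the differences were -0.05 ± 0.30 (-0.70 to 0.61) for 3R minus CS, 0.12 ± 0.30 (-0.53 to 0.78) for 6R minus CS and -0.17 ± 0.30 (-0.83 to 0.48) for 3R minus 6R.

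No control difference between lines was thus called in either row, 0 of 2 in each pair of lines in limma, and 1 of 2, row 6437, had an unadjusted p under 0.05 for 3R and for 6R against CS. Over all rows 2.87% were called for 3R minus CS, 0.0619% for 6R minus CS and 1.23% for 3R minus 6R. These levels were compared between lines that had been normalized separately. Of the 1297 rows called for 3R minus CS, 1203 were lower in 3R, and 698 rows were called after joint quantile normalization of all samples. Row 6437 then differed from CS by 2.01 for 3R (limma adjusted p = 0.053) and 2.05 for 6R (limma adjusted p = 0.24). Without 3R replicate 3 the differences of row 6437 from CS passed, at 2.35 for 3R (limma adjusted p = 0.0026) and 1.88 for 6R (limma adjusted p = 0.045).

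The scan names in the labels begin with 3 different numbers, taken here as slides, and these went with the lines. Replicates 1 and 2 were on slide 1 for 3R and 6R and on slide 2 for CS, and replicate 3 of each line was on slide 3. On slide 3 the control level of row 6437 was 0.05 higher in 3R than in CS and 1.32 higher in 6R than in CS. The low CS values, 10.1 and 8.85, came from slide 2, which held no other line, so that slide and line cannot be told apart there. Between 3R and 6R its control difference was 0.40 on slide 1 and -1.27 on slide 3. For row 44724 the 3R minus 6R difference was 0.24 on slide 1 and -0.99 on slide 3.

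**Figure D3:**
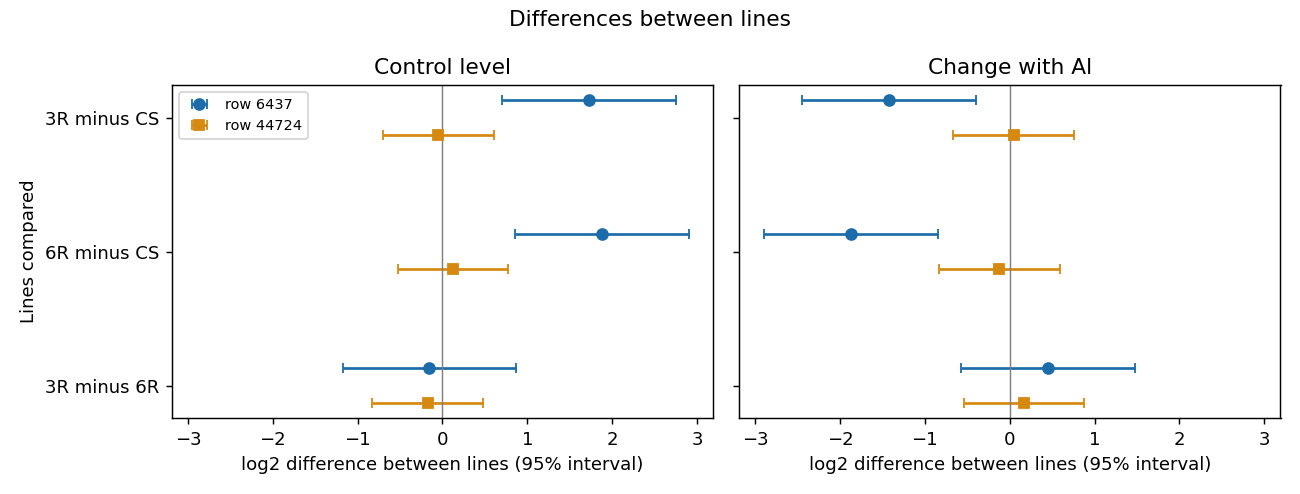
Differences between lines in the control level (left) and in the change with Al (right) on the log2 scale, with 95% intervals of the fit for each row that are not adjusted over rows, for row 6437 (circles) and row 44724 (squares). The intervals of row 6437 exclude 0 for 3R and 6R against CS in both panels, while all intervals of row 44724 include 0.

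The change with Al is made of the same means that the rule bounded in each line, under 6.3 with Al and at least 7.3 in control. Comparisons of it between lines are therefore not independent of the choice of rows. The fitted change with Al of row 6437 differed by -1.42 ± 0.44 (SE, 3 against 3 arrays, 95% interval -2.45 to -0.40) between 3R and CS and by -1.87 ± 0.44 (-2.90 to -0.85) between 6R and CS. Neither passed after adjustment (limma adjusted p = 0.24 and 0.20). When slides were added to that fit as a block, they were -0.48 (-1.93 to 0.97) and -0.93 (-2.38 to 0.52), and these intervals include 0. Between 3R and 6R the difference was 0.45 ± 0.44 (-0.58 to 1.47). For row 44724 the differences were 0.05 ± 0.31 (-0.66 to 0.76), -0.12 ± 0.31 (-0.83 to 0.59) and 0.17 ± 0.31 (-0.54 to 0.88) for 3R minus CS, 6R minus CS and 3R minus 6R.

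In limma 0 of 2 rows were called in each pair of lines, and 1 of 2, row 6437, had an unadjusted p under 0.05 for 3R and for 6R against CS. Over all rows 1.84% were called for 3R minus CS, 0.318% for 6R minus CS and 1.09% for 3R minus 6R. Without 3R replicate 3 the 3R minus CS difference of row 6437 passed, at -1.97 (limma adjusted p = 0.047). On slide 3 the changes of 3R and CS in that row differed by 0.01, those of 6R and CS by -1.42 and those of 3R and 6R by 1.43, and on slide 1 those of 3R and 6R differed by -0.04. The Al means of the row were 5.96 in CS, 6.26 in 3R and 5.96 in 6R, so a difference of changes shares most of its size with the difference of control levels.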

How the data were processed

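Al and control root apices of 3 wheat lines were measured on 9 arrays of 2 colours. The authors processed each channel as a sample of its own, per the labels, and deposited log2 intensities per the series matrix table. The submitters' processing notes name limma. How background was corrected and values normalized is not given in the sources used here. The values are those of 45220 rows, of which none was filtered. Rows were named through the platform annotation and a RefSeq gene table (assembly GCF_018294505.1), used for names only. The rule, both rows and the lists were chosen with earlier results of these data known.

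Within-array log2 ratios were fitted with limma 3.58.1 in R 4.3.3 (a mean per line and a shared dye term, 5 residual and 2.61 prior degrees of freedom), with contrasts between lines. The pairing comes from the shared array: residuals of the 2 channels correlated at 0.722 to 0.855. Control levels were fitted on the 18 channels, with group means, dye and array as a random block (consensus correlation 0.625). Benjamini-Hochberg adjustment ran over all rows, at 0.05. Both fits were tested on simulated data. The number of arrays limits the precision. For 6R, replicates 1 and 2 are exchanged between titles and scan names, and the titles were used. P-values set a difference against the spread between these samples, pooled over the groups of a fit and moderated over all rows. Member rows with a symbol were to be named, and otherwise at most 4 by row number.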

Additional observations from a re-analysis of the deposited data

How the results depend on the processing

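The number of rows meeting the rule was 2 and depended on each limit and on the processing. It was 1 with a control limit of 7.8 and 8 with 7.0, 0 with an Al limit of 6.0 and 8 with 6.5, 1 with the dye effect removed, 0 after quantile normalization of all samples, 0 with every sample past its limit, and 0 to 4 without 1 replicate. The median change of both rows had main values of -2.38 in CS, -3.07 in 3R and -3.38 in 6R. It moved by less than the spread between arrays under the alternatives run for it. These included each dye alone, which was chosen after seeing the data. Its direction was kept, but the rule chose rows that fall in each line. The median lies between 2 unlike falls and describes neither row. With the slide as a block, row 44724 changed by -0.67 in CS (interval -1.62 to 0.28, which includes 0), against -1.13 in the main fit. In 3R and 6R it then changed by -1.24 and -1.40, and row 6437 by -3.97, -4.45 and -4.90 in CS, 3R and 6R. The count of rows with a dye effect went from 1 to 0 with 1 mean for all lines, and to between 0 and 1 without 1 replicate.

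The count of 0 rows that differed between lines became 1 in 3 comparisons, all without 3R replicate 3: 0 to 1 for the change in 3R minus CS and for the control level in 3R minus CS and 6R minus CS, always through row 6437. Without 1 replicate its control difference of 3R minus 6R ran from -0.49 to 0.47 and its difference of change from -0.095 to 0.88. For row 44724 those of change ran from -0.11 to 0.29 (3R minus CS), -0.37 to 0.21 (6R minus CS) and -0.17 to 0.42 (3R minus 6R), and those of control level from -0.30 to 0.12, -0.20 to 0.32 and -0.37 to 0.15. Its 3R minus CS difference of change was -0.57 with the slide as a block and -0.12 after joint quantile normalization, where its control difference was 0.21. None of these passed in limma, and the cause was not tested.

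Over all rows the calls for Al in CS, 3R and 6R numbered 10370, 6735 and 12214, and 3912, 1691 and 4430 without the dye term. With no replicate block, that is without the pairing by array, they were 2388, 735 and 2716, and the counts of the 2 rows differing between lines stayed at 0. Without 1 replicate of the line they were 6803 to 9293, 1905 to 3879 and 6419 to 11370.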

Other observations

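Rows with a gene symbol that met both limits in 1 or 2 lines, but not in all 3, came from amy1, LOC100192198 and LOC543287, beside GA20ox1a and GA20ox1d. A row of amy1, which encodes an alpha-amylase that breaks down starch, met them in CS alone, with 7.38 ± 0.14 (SD, n = 3) in control and 6.22 ± 0.11 in Al samples. In 3R the same row read 7.55 ± 0.32 and 6.62 ± 0.41, and in 6R 8.34 ± 0.40 and 6.301 ± 0.27, where the Al mean is just outside the limit. A second amy1 row met the limits in 6R alone, at 7.82 ± 0.21 and 6.15 ± 0.34. The Al means of both amy1 rows in 3R, 6.62 and 6.64, were the highest of the 3 lines. Rows of LOC100192198 and LOC543287 met the limits in CS alone, with control means of 7.76 ± 0.68 and 8.13 ± 2.26. These 2 carry no descriptive name here.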
